A study of Homo sapiens with 16 samples.

Results

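Diacylglycerol kinases are the enzymes that add a phosphate to diacylglycerol (DAG) and turn it into phosphatidate. The 8 genes described here, DGKA, DGKD, DGKE, DGKG, DGKH, DGKI, DGKQ and DGKZ, were taken by symbol from a table of 60603 genes. DGKI was selected on its read counts, with its response in the SKNO-1 libraries known, so its SKNO-1 values are given below as a description without a test, and the other 7 genes came in as its family. The table lists 10 genes of the family: the remaining pair, DGKB and DGKK, had 0 reads in all 16 libraries and 0 to 3 reads per library, respectively, and were not counted as members.

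DAG is a short-lived lipid signal that phospholipase C enzymes release from membrane inositol lipids. It draws C1-domain proteins to the membrane, among them protein kinase C and protein kinase D enzymes and the RASGRP exchange factors that switch on RAS and RAP. A diacylglycerol kinase ends that signal and produces phosphatidate, itself a lipid mediator and a building block of new membrane. The mammalian enzymes fall into 5 types by their regulatory parts: calcium-binding EF hands in type I (DGKA, DGKG), a pleckstrin homology domain in type II (DGKD, DGKH), no such added part in type III (DGKE), a MARCKS-like region and ankyrin repeats in type IV (DGKI, DGKZ), and an additional cysteine-rich domain in type V (DGKQ). In blood cells the family is best known from T cells, where DGKA and DGKZ dampen antigen receptor signals, while DGKI has been studied mostly in brain.

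The expression data came from 16 total RNA libraries of SKNO-1 and U-937, a pair of human myeloid leukaemia cell lines. Within each line there were 4 groups of 2 libraries: DMSO (vehicle), all-trans retinoic acid (ATRA, the ligand of the retinoic acid receptors), Corin (a dual inhibitor of the LSD1 demethylase and the deacetylases of the CoREST complex), and ATRA together with Corin. Each agent was used at 0.1 µM and cells were collected after 24 h. SKNO-1 carries the RUNX1-RUNX1T1 fusion and was grown with GM-CSF (10 ng/mL), which U-937 did not receive, so line, genotype and medium cannot be told apart. Each genotype is represented by 1 established line. Nothing in the labels says that the 2 libraries of a group came from separate cultures, so the p-values measure the spread between these libraries, which may be technical.

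Library totals ran from 32.8 M to 37.8 M estimated counts in SKNO-1 and from 28.4 M to 37.6 M in U-937 (M, 1e6 counts). RUNX1T1 was at 18.2 to 41.3 TPM in SKNO-1 and at 0 to 0.03 TPM in U-937, HOXA9 was at 0 in every SKNO-1 library, and T-cell (CD3D, CD3E), erythroid (HBA1, HBB) and epithelial (EPCAM, KRT19) markers stayed at or below 0.16 TPM throughout. The B-cell marker CD79A reached 2.06 TPM, with MS4A1 at 0. The 2 DMSO libraries of SKNO-1 stood apart from each other: the SD of their log2 difference over genes was 0.361, against 0.108 to 0.208 for the other 7 pairs. Among the 7 kinases that difference moved with the GC content of the transcripts. DGKQ (65.1% GC) had 5.32 and 1.98 CPM in DMSO replicates 1 and 2, DGKZ (63.5% GC) had 62.3 and 37.9 CPM, and DGKE (39.0% GC) had 48.7 and 63.6 CPM. Counts of called kinases in SKNO-1 are therefore also given below without each of these libraries where they change. The U-937 DMSO pair leaned the same way for DGKE and DGKZ, with log2 ratios of replicate 1 to 2 of -0.32 and 0.46. The remaining kinases gave 0.02 to 0.12 there, with DGKQ at 0.12. In bulk RNA, fewer cells that express a gene and less RNA per cell cannot be told apart.

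DGKI, the type IV kinase with the longest gene of the set, spans 466.1 kb at chr7:137381037-137847092 on the minus strand (GRCh38, GENCODE release 44). Its transcript was nearly absent from untreated SKNO-1 cells. The 250 bases before the most upstream annotated start, chr7:137847093-137847342 (GRCh38, minus strand, read 5′ to 3′), are shown because DGKI is the member that went from almost no reads to the third place in its family, and this is the DNA that precedes it.
DGKI: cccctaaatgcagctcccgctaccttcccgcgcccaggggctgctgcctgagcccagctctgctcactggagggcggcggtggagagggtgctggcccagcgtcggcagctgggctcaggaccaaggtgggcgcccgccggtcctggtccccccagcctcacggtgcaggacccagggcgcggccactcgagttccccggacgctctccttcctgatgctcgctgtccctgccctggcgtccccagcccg
This stretch holds 19 CG dinucleotides and 72.8% G or C, against medians of 11 and 58.0% over the 35116 RefSeq promoter windows of the same length (250 bases before a start, GRCh38). Of those windows, 65.4% hold fewer CG dinucleotides. The stretch ends at the GENCODE start, 118 bases upstream of the RefSeq start of DGKI, so the bases between these starts are not in it. Of the half-site forms of the retinoic acid receptor motif, only AGGTCA and AGTTCA were searched for. Neither occurs in this stretch on either strand, and nothing stands in capitals for that reason. AGGTCA is found in 12.1% and AGTTCA in 8.8% of those 35116 windows, and direct repeats of AGGTCA with a spacer of 2 bases (DR2) or 5 bases (DR5), which contain that half-site, in 0.00285% each. The absence of a match says only that these letters are not in this window.

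In SKNO-1 DMSO replicates 1 and 2, DGKI had 2 and 0 reads (0.0578 and 0 CPM, counts per 1e6 on TMM-scaled library totals). ATRA alone brought it to 194 and 178 reads (5.82 and 4.81 CPM). Corin alone brought it to 254 and 274 reads (7.24 and 8.05 CPM). Every library with a single agent was thus far above both DMSO libraries, and Corin libraries lay above ATRA libraries without overlap.

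With both agents DGKI had 1723 and 1839 reads (53.7 and 55.2 CPM), the highest of all 16 libraries. As a ratio of scaled counts this was 10.3-fold the level with ATRA alone (95% exact conditional interval 9.25 to 11.5) and 7.13-fold the level with Corin alone (6.51 to 7.83). These intervals, like all intervals here, come from pooled counts and cover counting error only, not the spread between libraries. The reads carry no molecular identifiers, so copies of the same molecule cannot be told apart and the intervals may be too narrow. The ratios to DMSO rest on 2 reads in the denominator and are loose: 191.9 for ATRA (52.7 to 1590), 277.1 for Corin (76.3 to 2294) and 1975 for both (546.5 to 16320). Without DMSO replicate 1, where both of those reads lie, the denominator is 0, and the ratios become at least 66.95, 96.69 and 689.4, computed against a floor of 3 counts over the remaining DMSO library. Without DMSO replicate 2 they are 91.4, 132 and 941.4. The 2 ratios between treated groups do not involve DMSO and stayed within 9.36 to 11.3 and 6.76 to 7.52 when each of their libraries was left out.

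Whether the agents added up for DGKI in SKNO-1 depends on the scale. On the linear scale, the ATRA rise and the Corin rise added to the DMSO level give 12.9 CPM, and 54.4 CPM was measured, 4.21 times that sum. On the log2 scale, where fold changes multiply, the same mean levels give 1405 CPM, and the measured level was 0.0388 of it. The second number divides by the 2 DMSO reads and inherits their uncertainty, whereas the first hardly depends on them.

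**Figure D1:**
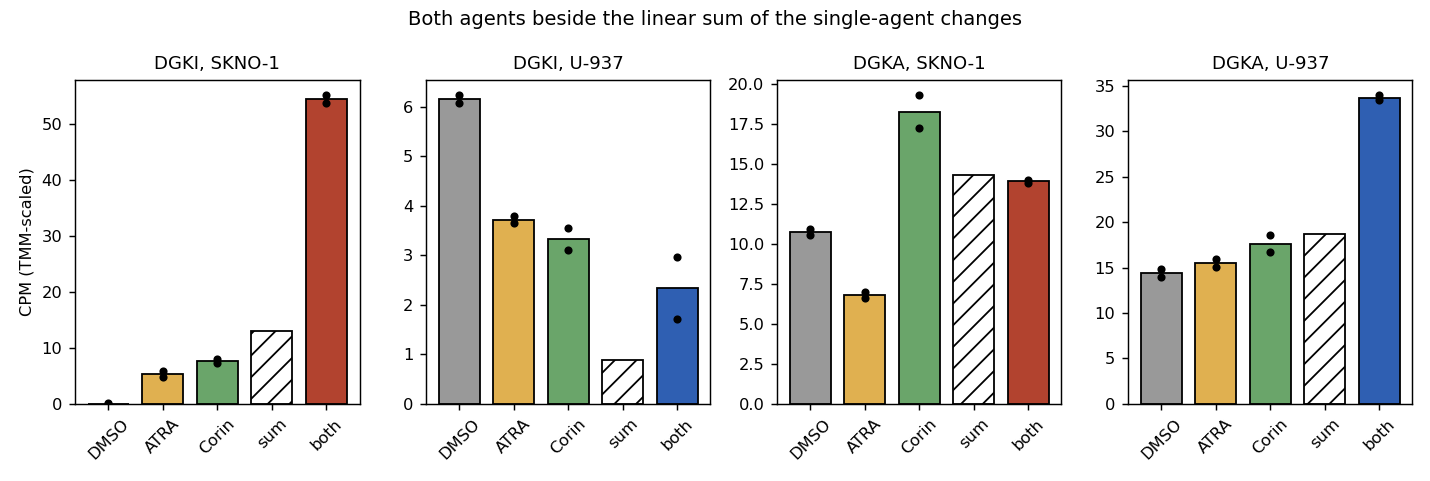
DGKI and DGKA in CPM (y axis, linear from 0) for each line, with bars for the mean of 2 libraries, black points for single libraries, and a hatched bar for the linear sum of the DMSO level and both single-agent changes. DGKI in SKNO-1 reached 54.4 CPM beside a sum of 12.9 CPM, DGKA in U-937 reached 33.7 CPM beside a sum of 18.8 CPM, and DGKI in U-937 fell to 2.34 CPM beside a sum of 0.885 CPM.

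In U-937, DGKI was already transcribed before treatment and went the other way. DMSO libraries had 199 and 179 reads (6.23 and 6.07 CPM). ATRA libraries had 132 and 125 reads (3.64 and 3.79 CPM). Corin libraries had 133 and 95 reads (3.54 and 3.10 CPM). Libraries with both agents had 58 and 86 reads (1.72 and 2.95 CPM), so all 6 treated libraries lay below both DMSO libraries.

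Each of these falls passed the quasi-likelihood test of edgeR after adjustment (Benjamini-Hochberg) over the 17717 genes tested in U-937. The gene was chosen with results of these data known, so these p-values are not independent evidence of its direction. DGKI fell by 0.73 on the log2 scale with ATRA (SE 0.226, adjusted p = 0.0117), by 0.89 with Corin (SE 0.228, adjusted p = 0.00973) and by 1.41 with both (SE 0.237, adjusted p = 1.49e-05). The fall with both agents kept its call in all 14 alternative fits, where its adjusted p ranged from 4.456e-09 to 0.000647. The ATRA call was lost without U-937 DMSO replicate 1 or ATRA replicate 1, and the Corin call without DMSO replicate 1 or Corin replicate 2, the adjusted p rising to at most 0.0668 and 0.0675. DGKI was also lower with both agents than with ATRA (log2 -0.68, SE 0.241, adjusted p = 0.0227), a call that was lost without either ATRA library, without combination replicate 1 and in DESeq2. Against Corin the difference was -0.52 (SE 0.243, adjusted p = 0.0676) and did not pass. The log2 departure from additivity was 0.21 (SE 0.331, adjusted p = 0.72).

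Before treatment the mean level of DGKI was thus 0.0289 CPM in SKNO-1 and 6.15 CPM in U-937. With both agents the order of the lines was turned round, at 54.4 ± 1.05 CPM in SKNO-1 and 2.34 ± 0.876 CPM in U-937 (SD, n = 2). The difference between the lines rests on the SKNO-1 values that picked the gene and is given without a test.

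**Figure D2:**
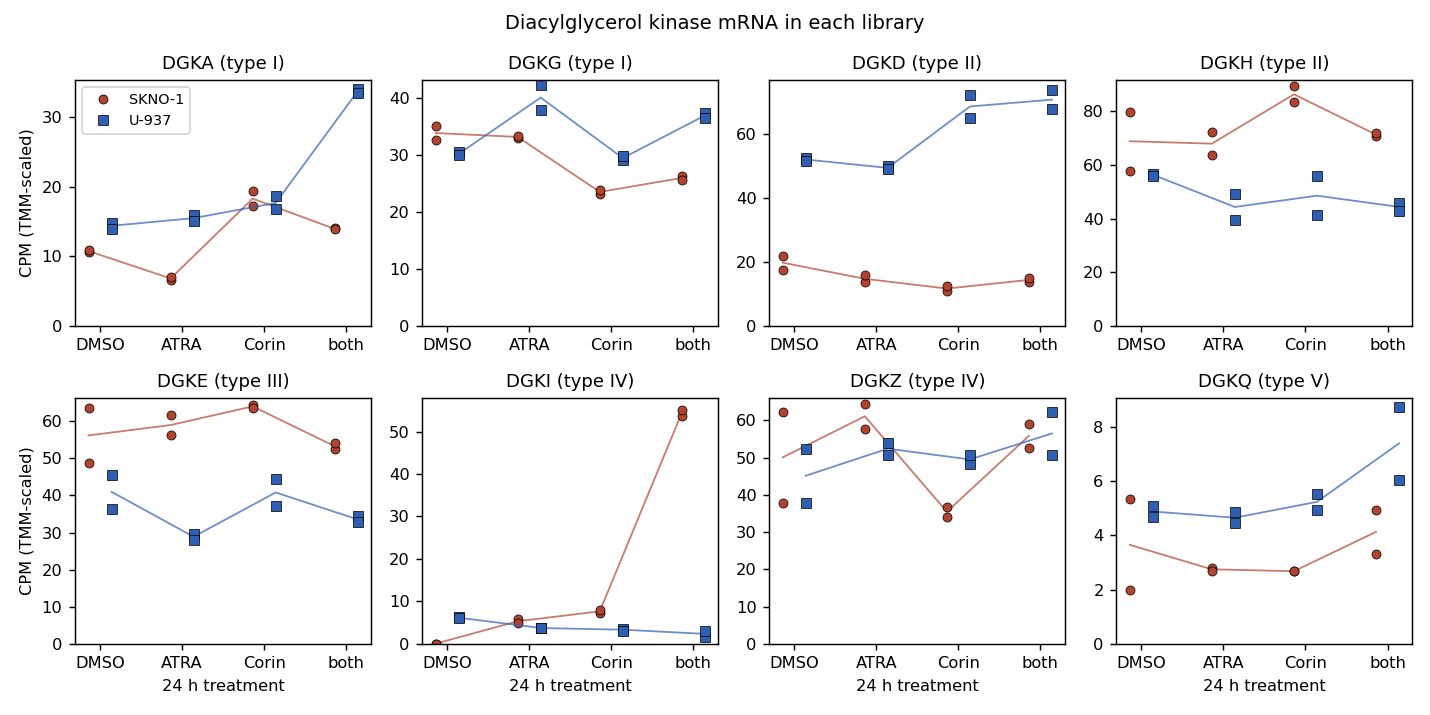
CPM on TMM-scaled totals (y axis, linear from 0, own range per panel) of the 8 kinases in each of the 16 libraries, by treatment (x axis), with circles for SKNO-1, squares for U-937 and lines through group means. DGKI climbs in SKNO-1 to 53.7 and 55.2 CPM with both agents and falls in U-937, while DGKA reaches 34.0 and 33.5 CPM in U-937 with both agents.

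Per unit of transcript length the family was led by DGKZ. In SKNO-1 DMSO libraries DGKZ was at 20.2 ± 2.31 TPM (transcripts per 1e6, which takes length into account; SD, n = 2), above DGKE at 11.9 ± 3.97 and DGKG at 10.2 ± 2.84 TPM, which overlapped. DGKA, DGKD and DGKH followed at 6.66 ± 1.73, 6.51 ± 1.80 and 5.52 ± 1.89 TPM and overlapped their neighbours in that order. Within each of the 2 libraries DGKE lay above DGKG, and DGKA, DGKD and DGKH kept that order. DGKQ was at 0.75 ± 0.255 TPM and DGKI last, at 0.02 and 0 TPM. The library ranges separated DGKZ from DGKE, DGKG from DGKA, DGKH from DGKQ and DGKQ from DGKI.

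With both agents DGKI moved up to the third place in the SKNO-1 order, at 6.63 and 7.64 TPM, below DGKE (8.21 and 9.02 TPM). It lay above DGKA (6.28 and 7.20 TPM) within each library, although the ranges of these genes overlap across libraries. With either agent alone it stood seventh, above DGKQ only, at 0.99 and 0.84 TPM with ATRA and at 1.07 and 1.27 TPM with Corin. Its mean share of the summed TPM of the 8 kinases went from 0.0182% in DMSO to 1.47% with ATRA, 1.93% with Corin and 13.1% with both. The summed TPM itself was 61.7 ± 9.65 in DMSO and 54.8 ± 9.29 with both agents, a difference within the spread between libraries.

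In U-937 the order was different at its top. DGKZ and DGKD overlapped at 22.1 ± 3.78 and 21.8 ± 0.410 TPM in DMSO, followed by DGKG at 11.3 TPM, DGKE at 9.77 TPM and DGKA at 9.47 TPM, the last 2 overlapping. DGKI was last in all 4 U-937 groups, at 0.93 ± 0.255 TPM in DMSO and 0.39 ± 0.113 TPM with both agents. With both agents DGKA took the third place, at 15.5 ± 0.905 TPM, clear of DGKG at 9.42 ± 0.403 TPM. The share of DGKA in the summed TPM went from 11.6% to 21.1%.

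**Figure D3:**
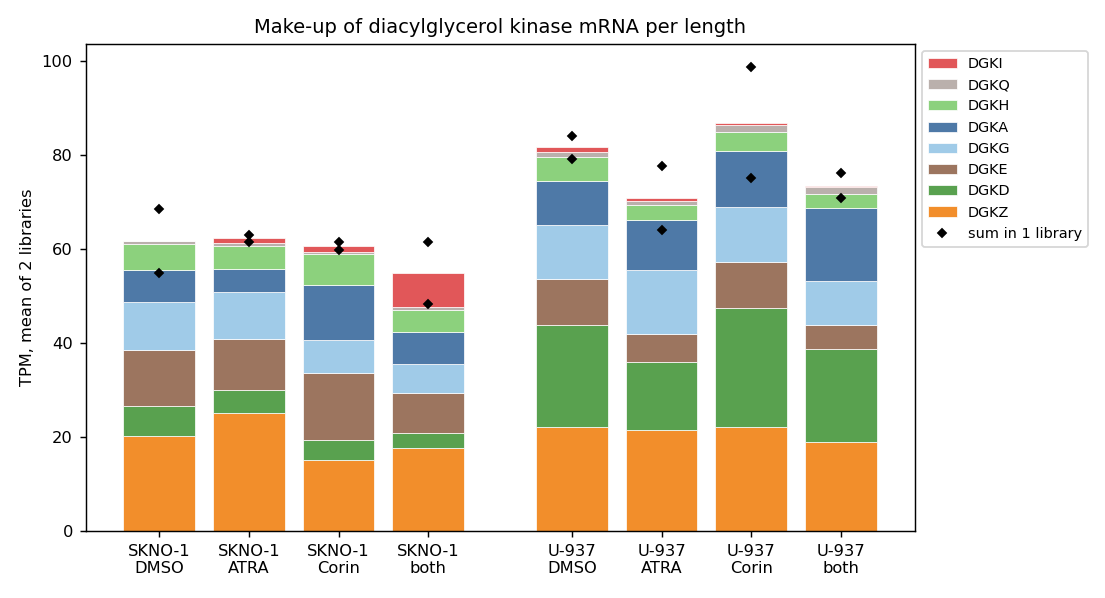
Mean TPM of the 8 kinases stacked by gene (y axis, linear from 0) for each line and treatment (x axis), with diamonds for the sum in each of the 2 libraries. The DGKI segment is visible mainly in SKNO-1 with both agents, where its share is 13.1%, and DGKD makes up 26.8% of the U-937 DMSO column against 10.4% in SKNO-1.

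Before treatment the lines differed in 5 of the 7 kinases other than DGKI, 2 higher and 3 lower in U-937, against 64.8% of all 19872 genes tested in the fit of both lines (31.7% higher, 33.1% lower). DGKD showed the largest gap of the 7, with 21.9 and 17.6 CPM in SKNO-1 against 52.6 and 51.5 CPM in U-937 (log2 1.28, SE 0.112, adjusted p = 6.453e-09 by edgeR). DGKE was lower in U-937 (log2 -0.59, SE 0.13, adjusted p = 0.000665), and both calls held in all 21 alternative fits. DGKA (0.29), DGKG (-0.29) and DGKH (-0.42) also passed, DGKA and DGKG with adjusted p of 0.0294 and 0.0106. DGKG lost its call without SKNO-1 DMSO replicate 2 or either U-937 DMSO library, and DGKA without U-937 DMSO replicate 1 or without the low-count filter. DGKH (adjusted p = 0.0329) kept its call in 9 of 21 alternative fits, and without SKNO-1 DMSO replicate 2 its difference was -0.12.

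ATRA alone changed 1 of the 7 kinases in SKNO-1, where 6.76% of 17479 genes tested were called (2.96% higher, 3.79% lower). DGKA, the calcium-responsive type I enzyme at chr12:55927319-55954027 (plus strand), had 10.6 and 10.9 CPM in the DMSO libraries and 6.60 and 6.97 CPM in the ATRA libraries, with no overlap. This was a fall by 0.66 on the log2 scale (SE 0.109, adjusted p = 0.0088 by edgeR). The call was lost without either ATRA library (adjusted p up to 0.0867; the remaining one is then assumed to vary like the other groups) and with only the 4 libraries compared. Without DMSO replicates 1 and 2 in turn, 3 and 4 of the 7 were called, among 29.1% and 24.7% of genes. DGKD had 21.9 and 17.6 CPM in DMSO and 13.6 and 15.7 CPM with ATRA, and its difference of -0.43 (adjusted p = 0.141) did not pass. It passed without DMSO replicate 2 (-0.61, adjusted p = 0.000427), with the GC trend removed (-0.47, adjusted p = 0.00551) and without the low-count filter (-0.47, adjusted p = 0.0219). DGKQ had 5.32 and 1.98 CPM in DMSO and 2.79 and 2.70 CPM with ATRA, a difference of -0.40 (adjusted p = 0.714) that was 0.43 without DMSO replicate 1 and -0.99 (adjusted p = 0.00172) without replicate 2. The median over the 7 was -0.03, beside 0.01 over all genes tested.

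In U-937, ATRA alone changed 3 of the 7 kinases, 1 higher and 2 lower, against 41.8% of 17717 genes tested (21.7% higher, 20.1% lower). DGKG, the second type I enzyme (chr3:186105668-186362234, minus strand), went from 30.4 and 29.9 CPM to 42.3 and 37.9 CPM (log2 0.41, SE 0.103, adjusted p = 0.0024). DGKE, the type III enzyme that prefers arachidonate-containing DAG (chr17:56834107-56869567, plus strand), went from 36.4 and 45.5 CPM to 29.6 and 28.1 CPM (log2 -0.50, SE 0.118, adjusted p = 0.00132). DGKH, a type II enzyme (chr13:42040036-42256578, plus strand), went from 56.7 and 56.1 CPM to 39.4 and 49.2 CPM (log2 -0.35, SE 0.134, adjusted p = 0.0457). In none of the 3 did treated and DMSO libraries overlap. The DGKG call was lost without ATRA replicate 1, the DGKE call without DMSO replicate 2, and the DGKH call without either DMSO library or ATRA replicate 1 and with each library's GC trend removed (-0.31, adjusted p = 0.174). DGKA, at 14.8 and 13.9 CPM in DMSO and 15.9 and 15.0 CPM with ATRA, did not pass (log2 0.11, adjusted p = 0.502).

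Corin alone changed 3 of the 7 kinases in SKNO-1, 1 higher and 2 lower, against 37.9% of 17479 genes tested (20.5% higher, 17.3% lower). DGKA rose to 17.2 and 19.3 CPM (log2 0.77, SE 0.105, adjusted p = 0.00101), the opposite of its change with ATRA. DGKD, a type II enzyme (chr2:233354494-233472104, plus strand), fell to 10.9 and 12.3 CPM (log2 -0.76, SE 0.141, adjusted p = 0.00415). DGKG fell from 32.6 and 35.1 CPM to 23.2 and 23.8 CPM (log2 -0.53, SE 0.0773, adjusted p = 0.00137). These 3 calls by edgeR held in all 14 alternative fits each, including those without either DMSO library. DGKZ, at 62.3 and 37.9 CPM in DMSO and 34.2 and 36.8 CPM with Corin, gave -0.50 (adjusted p = 0.089). Without DMSO replicate 2, all 7 kinases were called (3 higher, 4 lower), among 52.1% of 18284 genes tested.

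In U-937, Corin alone changed 1 of the 7, which rose, against 12.9% of 17717 genes tested (8.55% higher, 4.40% lower). DGKD rose from 52.6 and 51.5 CPM to 65.1 and 72.2 CPM (log2 0.40, SE 0.0992, adjusted p = 0.00776), a call lost without either DMSO library or without Corin replicate 2. DGKA, at 16.7 and 18.6 CPM with Corin, lay above both DMSO libraries without passing the test (log2 0.30, adjusted p = 0.106). The other 5 had differences between -0.22 and 0.13.

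With both agents together, a comparison that shares its DMSO libraries with the preceding ones, 1 kinase was called higher and 2 lower in SKNO-1, against 46.7% of 17479 genes tested (24.7% higher, 22.0% lower). DGKA was at 13.99 and 13.83 CPM (log2 0.37, SE 0.106, adjusted p = 0.0205), DGKD at 13.8 and 14.9 CPM (log2 -0.46, SE 0.14, adjusted p = 0.0278) and DGKG at 26.4 and 25.6 CPM (log2 -0.38, SE 0.0771, adjusted p = 0.00459). The DGKA and DGKD calls were lost without either library of the combination, DGKA also in DESeq2 and without the low-count filter, and all 3 with only the 4 libraries compared. Without DMSO replicate 1, all 7 were called (3 higher, 4 lower) among 60.6% of 18304 genes tested, and without replicate 2, 4 were, among 52.8%. Compared with ATRA alone, DGKA was higher with both agents (log2 1.03, SE 0.109, adjusted p = 0.000219) and DGKG lower (log2 -0.35, SE 0.0772, adjusted p = 0.00697), 2 of 7 kinases against 44.8% of genes (23.0% higher, 21.8% lower). The DGKG call was lost without either ATRA library or combination replicate 2, and 3 kinases were called without either DMSO library, among 59.6% and 59.7% of genes. Compared with Corin alone, 0 of the 7 passed in edgeR, against 10.4% of genes (4.82% higher, 5.60% lower), while 2 had an unadjusted p under 0.05 and DESeq2 called 2. Without either SKNO-1 DMSO library 6 were called, among 38.9% of genes, although DMSO is not in that contrast. DGKA was nearest in edgeR, at -0.39 (adjusted p = 0.0524). For the departure from log2 additivity 0 of the 7 were called by edgeR and 0 by DESeq2, against 0.463% of genes tested (0.315% higher, 0.149% lower), with 1 at an unadjusted p under 0.05. Without DMSO replicates 1 and 2 in turn that count was 1 and 5, among 6.32% and 30.9% of genes.

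In U-937 the combination moved all 7 kinases, 5 up and 2 down, where 65.3% of 17717 genes tested were called (33.1% higher, 32.2% lower). DGKA rose most, from 14.8 and 13.9 CPM to 34.0 and 33.5 CPM (log2 1.23, SE 0.116, adjusted p = 1.967e-09), and no alternative fit lost the call. The DGKA means went from 9.47 to 15.5 TPM, a smaller step than on the count scale. In FPKM, which also takes length into account but scales libraries differently, they went from 9.945 to 20.88. DGKD rose to 73.9 and 67.8 CPM (log2 0.44, SE 0.0992, adjusted p = 0.000413), also in every alternative. DGKG rose to 37.4 and 36.5 CPM (log2 0.29, adjusted p = 0.0165).

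DGKQ, the type V enzyme and the second least abundant member by TPM in U-937 (chr4:958887-986895, minus strand), went from 5.07 and 4.68 CPM to 8.73 and 6.05 CPM (log2 0.60, adjusted p = 0.00976). DGKZ (chr11:46332905-46380554, plus strand) went from 52.4 and 37.9 CPM to 62.2 and 50.8 CPM, ranges that overlap, and its rise of 0.32 had an adjusted p of 0.0442. DGKH fell to 45.7 and 43.0 CPM (log2 -0.35, adjusted p = 0.0315) and DGKE to 34.3 and 32.7 CPM (log2 -0.29, adjusted p = 0.0356). DGKG, DGKH, DGKE, DGKQ and DGKZ each lost the call when 1 or another library was left out: without DMSO replicate 2, which affects all 5, 2 of the 7 kinases were called, among 55.9% of genes. Without combination replicate 1, 4 were, among 57.9%. With the GC trend removed, 5 were called higher and 0 lower, among 67.2%: DGKH gave -0.22 (adjusted p = 0.281) and DGKE -0.11 (adjusted p = 0.373). DGKE was also lost in DESeq2, DGKG without the low-count filter and DGKZ with only the 4 libraries compared.

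Of the 7 kinases, 1 passed the test of departure from log2 additivity in U-937. This was DGKA, with a departure of 0.83 (SE 0.164, adjusted p = 0.000522 by edgeR), kept in all 13 alternative fits with adjusted p from 0.000117 to 0.00446. In all, 23.4% of genes tested departed from additivity in that line (8.09% higher, 15.3% lower). Without combination replicate 2, 2 of the 7 were called, among 21.4% of genes. On the linear scale the measured 33.7 CPM was 1.80 times the sum of 18.8 CPM, so for DGKA the departure had the same direction on both scales. Against ATRA alone DGKA was higher by 1.12 and against Corin alone by 0.94 (adjusted p = 1.817e-08 and 1.7e-07). DGKD (0.52) and DGKQ (0.67) were also higher with both agents than with ATRA, giving 3 of 7 against 47.4% of genes (22.5% higher, 24.8% lower). Against Corin, DGKG (0.33) and DGKQ (0.50) were higher and DGKE (-0.28) lower, giving 4 of 7 against 60.5% of genes (29.9% higher, 30.6% lower). DGKQ lost both calls without combination replicate 1, the one against ATRA also without ATRA replicate 1 and the one against Corin also without Corin replicate 1, and DGKE lost its call without either combination library or Corin replicate 2, with the GC trend removed and in DESeq2. DESeq2 and the fit without the low-count filter also lost DGKQ against Corin.

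**Figure D4:**
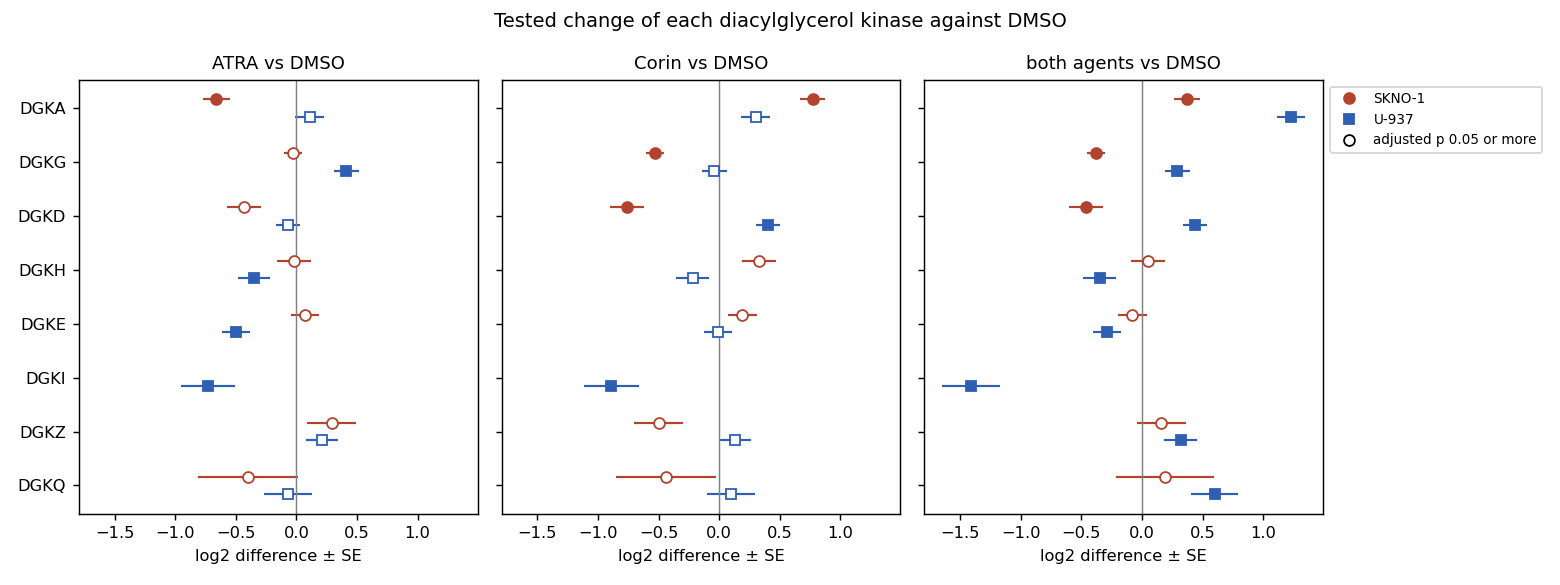
Log2 difference from DMSO (x axis, bars show the SE) for each kinase (y axis) with ATRA, Corin or both agents, with circles for SKNO-1, squares for U-937, and filled symbols where the adjusted p was under 0.05. DGKI in SKNO-1 was not tested and is left out. DGKA and DGKD in SKNO-1 are called in opposite directions with Corin, and DGKA in U-937 with both agents lies farthest to the right.

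The responses of 3 kinases differed between the lines by an interaction test in the fit of all 16 libraries. For ATRA, 2 of the 7 differed, against 19.4% of 19872 genes tested (10.6% higher, 8.81% lower): the U-937 minus SKNO-1 difference was 0.81 for DGKA (SE 0.162, adjusted p = 0.00131) and 0.48 for DGKG (SE 0.133, adjusted p = 0.0141). For Corin, 2 differed, against 12.8% of genes (5.28% higher, 7.49% lower): 1.16 for DGKD (SE 0.158, adjusted p = 5.174e-05) and 0.49 for DGKG (SE 0.134, adjusted p = 0.0199). For both agents 3 differed, against 40.6% of genes (17.9% higher, 22.7% lower), with 0.90 for DGKA (SE 0.158), 0.94 for DGKD (SE 0.157) and 0.72 for DGKG (SE 0.134), and adjusted p of 0.000123, 7.323e-05 and 0.000224. The median of all genes in that last contrast was -0.11, of opposite sign to the differences of these 3 kinases. DGKD and DGKG were lower than DMSO in SKNO-1 and higher in U-937 with both agents. The 3 calls for both agents held in all 21 alternatives each, as did DGKA for ATRA and DGKD for Corin. DGKG for ATRA was lost without either SKNO-1 ATRA library, either U-937 DMSO library or U-937 ATRA replicate 1, and DGKG for Corin without SKNO-1 Corin replicate 1. Without SKNO-1 DMSO replicate 2, 6 of the 7 were called in each of the 3 contrasts, among 23.9%, 21.5% and 39.6% of genes.

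Annotated neighbours share some of these loci, and whether strand was used in counting is not given in the sources used here. DGKG overlaps ETV5 on the same strand by 4651 bases, and in U-937 ETV5 fell by 1.13 on the log2 scale with ATRA (76.3 to 34.9 CPM) while DGKG rose. DGKA overlaps PYM1, on the opposite strand, by 5300 bases. PYM1 in SKNO-1 fell by 0.58 with Corin while DGKA rose, and in U-937 with both agents it gave 0.15 (adjusted p = 0.247). DGKE shares 33181 bases of its span with TRIM25 on the opposite strand, which gave 0.12 with ATRA in U-937 (adjusted p = 0.347). SLC26A1, on the strand of DGKQ, was at or below 0.49 CPM in every group mean. In DGKI the opposite-strand pseudogene RPL6P19 had at most 0.303 CPM in any group mean. DGKZ had estimated counts that were not whole in 100% of libraries, DGKG in 25% and DGKH in 18.75%, so part of their reads was divided with other genes.

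The other genes of DAG and phosphatidate metabolism moved too. Of a list of 42 such genes, 30 were tested in SKNO-1 and 31 in U-937. In SKNO-1, ATRA was called for 3 higher and 5 lower, Corin for 17 higher and 1 lower, and both agents for 18 higher and 4 lower. The median log2 differences were -0.02, 0.61 and 0.64, beside 0.01, 0.00 and 0.05 over all genes. Of all genes, 2.96%, 20.5% and 24.7% were called higher and 3.79%, 17.3% and 22.0% lower. With either SKNO-1 DMSO library left out, the ATRA counts became 10 higher and 8 lower (without replicate 1) and 6 higher and 11 lower (without replicate 2), among 29.1% and 24.7% of all genes called. In U-937, ATRA was called for 15 higher and 4 lower, Corin for 5 higher and 1 lower, and both agents for 17 higher and 5 lower. There, 21.7%, 8.55% and 33.1% of all genes were called higher and 20.1%, 4.40% and 32.2% lower. The list medians in U-937 were 0.22, 0.07 and 0.35, beside 0.02, 0.00 and 0.03 over all genes.

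Among proteins that respond to DAG, RASGRP3 rose in all 6 comparisons with DMSO. RASGRP3 is an exchange factor for RAS and RAP, and DGKI is known to restrain it in other cells. In SKNO-1 it had 1.04 and 1.40 CPM in DMSO, 2.07 and 2.89 CPM with ATRA (log2 1.02, adjusted p = 0.0275), 12.02 and 11.22 CPM with Corin (3.25, adjusted p = 2.538e-05) and 15.5 and 15.6 CPM with both (3.67, adjusted p = 9.62e-06). In U-937 it went from 0.376 and 0.95 CPM to 5.24 and 5.07 CPM with ATRA (2.97), 4.58 and 4.83 CPM with Corin (2.84) and 31.5 and 32.3 CPM with both (5.6, adjusted p = 4.159e-16). RASGRP3 thus rose in both lines, whereas DGKI rose in SKNO-1 and fell in U-937. RASGRP4, a second exchange factor of mast and myeloid cells, fell in SKNO-1 with ATRA from 3.93 and 2.45 CPM to 0.42 and 0.513 CPM (log2 -2.75, adjusted p = 0.0014). RASGRP2 fell with Corin there (-0.99), PRKCQ fell with both agents in SKNO-1 (-0.38) and with Corin in U-937 (-0.52), and PRKCE fell in U-937 with both (-0.93).

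Among enzymes that make DAG, PLCB2, a G-protein-coupled phospholipase C of blood cells, rose in SKNO-1 with ATRA from 17.2 and 13.4 CPM to 48.5 and 48.7 CPM (log2 1.67, SE 0.112, adjusted p = 0.000102). PLCH1 fell there with ATRA (-1.03). PLCB1 fell in U-937 with ATRA (-0.72), and PLCD3 rose with Corin (1.02). Among enzymes that act on phosphatidate, the lipid phosphatase PLPP3, which turns phosphatidate back into DAG at the cell surface, rose in U-937 from 1.41 and 1.73 CPM to 15.4 and 13.7 CPM with ATRA (3.21) and to 21.3 and 24.5 CPM with both (3.87, adjusted p = 6.07e-15). PLPP1 fell in SKNO-1 with both agents (-0.70). PLD2, a phospholipase D that makes phosphatidate without DAG, rose in SKNO-1 from 0.405 and 0.263 CPM to 3.02 and 3.26 CPM with Corin (3.23) and to 3.93 and 3.78 CPM with both (3.52, adjusted p = 0.000192). DGAT2, which stores DAG as triglyceride, fell in U-937 with ATRA (-1.19) and with both agents (-0.93).

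**Figure D5:**
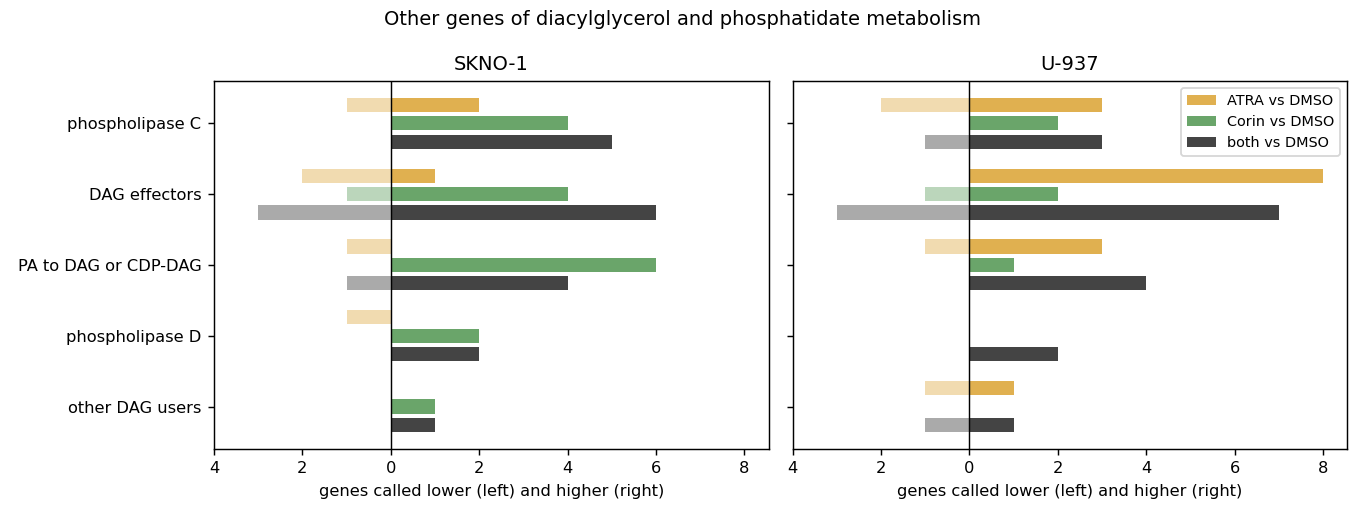
Number of genes called lower (pale bars, left of 0) and higher (full bars, right of 0) at adjusted p under 0.05 in 5 groups of a 42-gene list, for SKNO-1 and U-937, with colours for ATRA, Corin and both agents against DMSO (PA, phosphatidate). In SKNO-1 with Corin all 6 tested genes between phosphatidate and DAG or CDP-DAG are called higher, beside 20.5% of all genes. In U-937 with ATRA 8 of 11 tested DAG effectors are, beside 21.7% of all genes. Other groups show fewer calls: with Corin in U-937, 2 DAG effectors are called higher and 1 lower.

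Over the 16 libraries, the genes whose log2(CPM + 0.5) profile was most like that of DGKI, among 14242 compared, were C4orf19 (Pearson r = 0.918, Spearman rho = 0.724), AF064858.1 (0.88, 0.565), AC004812.2 (0.867, 0.682), TNS1 (0.865, 0.768) and AL139089.1 (0.822, 0.694). The libraries share treatments and lines, so these values are a description without a test. On totals scaled over all 16 libraries, C4orf19 had means of 0.507, 1.013, 1.76 and 3.44 CPM in SKNO-1 with DMSO, ATRA, Corin and both, and TNS1, a protein of cell adhesions, had 2.38, 6.21, 9.14 and 12.1 CPM. Both stood in the SKNO-1 order of DGKI, over a much smaller range, which is no separate result because they were picked for their likeness. In U-937 their means fell with ATRA and with both agents, like DGKI. With Corin they rose there, C4orf19 from 1.17 to 1.37 CPM and TNS1 from 7.62 to 8.57 CPM, whereas DGKI fell. Of the other kinases, DGKH had the highest r with DGKI (0.228) and DGKG the lowest (-0.619).

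In the authors' deposited table, 39 of 45 member comparisons with DMSO tested in both had the same call as here, leaving DGKI in SKNO-1 aside. The authors' deposited table and edgeR both called 15, edgeR alone called 6, and 44 of 45 had the same sign. The 6 were DGKA with ATRA and with both agents in SKNO-1, and DGKE, DGKG, DGKQ and DGKZ with both agents in U-937, where the authors' deposited table gives adjusted p from 0.0823 to 0.331.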

How the data were processed

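Total RNA libraries of SKNO-1 and U-937 (16, 2 per group) were read as 1 file per library and 1 joint table. The authors deposited expected counts (RSEM estimated counts) with TPM and FPKM. Trimmomatic, STAR, RSEM and DESeq2, with hg38, are listed per the submitters' processing notes, without versions. Tables of the authors' own comparisons, with log2 fold changes and adjusted p-values per the file headers, were only set beside the results here. The labels name a stranded kit and paired 100 bp reads; the file names carry a single-end mark, and which reads were counted is not given in the sources used here. All value columns were assigned to a sample.

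Estimated counts were rounded, which moved no library total by more than 42.03. Low counts were filtered with filterByExpr in edgeR 4.0.16 (R 4.3.3), which left 17479 genes for SKNO-1, 17717 for U-937 and 19872 for the fit of both lines. TMM scaling and a robust quasi-likelihood fit without a replicate block followed, on the 8 libraries of a line (4 residual degrees of freedom) or all 16 (8) for contrasts between lines. A gene is called when its p, adjusted over all genes tested (Benjamini-Hochberg), is under 0.05. CPM uses the TMM-scaled totals of the line, except for the genes most like DGKI, whose CPM uses the totals scaled over all 16 libraries. Between genes, TPM is compared. Alternatives were RLE scaling, DESeq2 1.42.0, no filter beyond 1 count, a replicate block, removal of each library's GC trend, only the 4 libraries compared, FPKM for TPM, and leaving out each library. Scripts were tested on simulated data.

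The members and lists were chosen with earlier results of these data known. All 8 members are named. From the 42-gene list, the 2 called genes with the largest rise and fall against DMSO are named for each line and treatment if their mean over the line reached 1 CPM, and the 5 genes most like DGKI among those with a mean of at least 1 CPM. SKNO-1 without each DMSO library was added for the list after seeing the data. One marker gene is not reported here. Positions are from GENCODE release 44 (GRCh38).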

Additional observations from a re-analysis of the deposited data

Results flagged for a closer look

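The response of 3 kinases differed between the lines by an interaction test in edgeR. With ATRA the U-937 minus SKNO-1 difference was 0.48 (log2) for DGKG and 0.81 for DGKA. With Corin it was 0.49 for DGKG and 1.16 for DGKD. With both agents it was 0.72 for DGKG, 0.90 for DGKA and 0.94 for DGKD, where the median of all genes was -0.11. DGKG was called in all 3 contrasts, but its ATRA and Corin calls were lost in some fits that left out 1 library. DGKD with ATRA (0.39) and DGKA with Corin (-0.47) did not pass. Of all genes tested, 19.4% were called with ATRA, 12.8% with Corin and 40.6% with both agents. The lines also differ in medium and genotype, whose part was not tested.

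DGKI moved in opposite directions in every library of the lines: each treated SKNO-1 library lay above both DMSO libraries of that line, and each treated U-937 library lay below both of its own. The U-937 log2 differences were -0.73 with ATRA, -0.89 with Corin and -1.41 with both agents. The difference between the lines was not tested, since the SKNO-1 values of DGKI were known when it was chosen.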

How the results depend on the processing

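Counts of called kinases below are of 7, leaving out DGKI. The share of all genes called also changes with the fit and is given above for some alternatives only. The counts below therefore describe the fits and are not a result about the kinases. In SKNO-1 the ATRA count (1) was 2 without the low-count filter, 3 with the GC trend removed and 0 with only the 4 libraries compared. The Corin count (3) was 6 after removal of the GC trend and 5 without the filter. The count for both agents (3) was 5 with the GC trend removed and 0 with only the 4 libraries compared. Both agents against Corin (0) gave 1 with RLE scaling, 4 without the filter, 1 with the GC trend removed and 2 in DESeq2. The departure from additivity (0) gave 1 after removal of the GC trend and 2 without the filter. In U-937, both agents against ATRA (3) gave 5 and the departure (1) gave 2 with the GC trend removed, and both against Corin (4) gave 2 in DESeq2. Between lines, the Corin contrast (2) gave 4 without the filter and the contrast for both agents (3) gave 5 with the GC trend removed. The cause was not tested. With FPKM in place of TPM, 6 of 8 places in the SKNO-1 ATRA order were the same. Both units give the same order within a library, so this cannot test the order. DGKA and DGKD, which changed places, had equal TPM means of 4.875.

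Leaving out 1 library gave 0 to 4 called kinases for ATRA, 3 to 7 for Corin, 1 to 7 for both, 1 to 3 for both against ATRA, 0 to 6 for both against Corin and 0 to 5 for the departure in SKNO-1. The same counts in U-937 were 1 to 3, 0 to 1, 2 to 7, 2 to 3, 2 to 4 and 1 to 2. Between lines they were 2 to 6 in DMSO, 1 to 6 for ATRA, 1 to 6 for Corin and 3 to 6 for both. DGKI in U-937 ranged from -0.77 to -0.70 with ATRA, -0.99 to -0.80 with Corin and -1.85 to -1.06 with both. Its SKNO-1 ratios to DMSO went up to 211.1, 292.1 and 2002. Without DMSO replicate 1 there were no DMSO reads, and they were lower bounds of 66.95, 96.69 and 689.4. The lowest ratios with DMSO reads were 91.4, 132 and 941.4.

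For DGKQ, signs turned without SKNO-1 DMSO replicate 1. Leaving out 1 library gave -0.99 to 0.43 with ATRA and -1.01 to 0.41 with Corin in SKNO-1, and -0.55 to 0.86, -0.34 to 1.11 and -0.42 to 1.01 between lines for ATRA, Corin and both. With the GC trend removed, DGKQ for both agents against Corin became -0.01 and the DGKZ departure -0.16 in SKNO-1. The DGKI departure in U-937 ranged from -0.22 (without combination replicate 2) to 0.57 with 1 library left out.

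The labels do not say that equal replicate numbers share a culture or day, and correlations of same-numbered deviations ran from -0.488 to 0.236 in SKNO-1 and from -0.447 to 0.418 in U-937. With the replicate number as a block, the count for both agents against Corin in U-937 was 3, without DGKE, and the ATRA contrast between lines 3. The other counts of called kinases did not change under the block, and DGKI in U-937 gave -0.73, -0.88 and -1.42. DGKQ and the SKNO-1 DMSO level of DGKI have the fewest reads and the least precision.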
